A study of Homo sapiens with 15 samples.

Results

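The NF-κB feedback and survival genes described here are 9 genes, BIRC3, BIRC2, TNFAIP3, NFKBIA, NFKB1, NFKB2, RELB, TNIP1 and ICAM1, taken by symbol from the 35012 gene symbols of a count table of HepG2 cells. They were chosen by their place in the NF-κB pathway and by measured values, the levels in the 4 groups and the departure of the double knockdown from the sum of the single knockdowns, with earlier results of these data known. Their levels and changes between groups are therefore given as a description, with no p-value. HepG2 is an established human liver cancer cell line, and BRG1 (gene SMARCA4) and BRM (gene SMARCA2) are the alternative ATPases of the SWI/SNF chromatin remodelling complexes. The cells carried a lentiviral short hairpin against BRG1 (BRG1, 4 libraries), against BRM (BRM, 3 libraries), against both (double, 4 libraries), or a non-silencing hairpin (NS, 4 libraries). All groups, NS included, were infected in polybrene, selected with puromycin and collected on day 5 after transduction. The labels give no hairpin sequence and no number of hairpins per gene, and no separate culture is stated for any replicate, so a p-value here reflects variation between libraries that could be purely technical.

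NF-κB is a family of dimeric transcription factors held inactive in the cytoplasm by IκB proteins. Signals from cytokine and Toll-like receptors activate IκB kinases, which mark IκB for destruction and free the dimers. In the non-canonical branch the kinase NIK (gene MAP3K14) drives the processing of p100 to p52, which pairs with RELB, and NIK itself is held low by a complex of TRAF proteins with the ubiquitin ligases cIAP1 and cIAP2. Many target genes of NF-κB encode its own inhibitors or proteins that block cell death, and in liver cells these are known for limiting death after exposure to tumour necrosis factor.

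Total counts ran from 11500149 to 27187991 per library. Levels below are CPM (counts scaled to library size) with TMM factors and were not divided by transcript length, so they are compared for a gene between libraries and not between genes. SMARCA4 averaged 27.8 ± 2.31 CPM in BRG1 libraries (SD, n = 4), 346 ± 86.7 CPM in BRM libraries (n = 3) and 46.2 ± 6.09 CPM in double libraries (n = 4), against 307 ± 7.04 CPM in NS libraries (n = 4). SMARCA2 averaged 25.8 ± 3.64, 4.38 ± 2.22 and 2.56 ± 0.299 CPM in BRG1, BRM and double libraries, against 39.2 ± 4.06 CPM in NS libraries. Within each group, libraries 1 and 2 differed from libraries 3 and 4 (a chi-square over genes, divided by its degrees of freedom, of 107 to 245, against 5.5 to 71.7 within a set). Mitochondrial genes held 4.97 to 8.33% of counts in libraries 1 and 2 and 1.33 to 3.55% in libraries 3 and 4. Changes of the 9 genes against NS are also given within each of these sets below, those within libraries 1 and 2 before those within libraries 3 and 4, and libraries 3 and 4 include 1 BRM library. The labels do not say what a library number shares.

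The liver identity on the label was checked with 8 hepatocyte marker genes, all of which were detected. Their summed level was 2890 to 11800 CPM in BRG1 libraries, 38300 to 41600 CPM in BRM libraries and 6390 to 15900 CPM in double libraries, against 17800 to 29700 CPM in NS libraries. Of these 8 genes, 6 were called lower in BRG1, 1 in BRM and 4 in double libraries. Of all tested genes, 9.97%, 6.26% and 9.9% were called lower in these groups. The summed level of 15 marker genes of other cell types was 2880 to 4930 CPM in BRG1 libraries, 487 to 1120 CPM in BRM libraries and 1190 to 2760 CPM in double libraries, against 802 to 1380 CPM in NS libraries. Most of this sum was the cholangiocyte keratin gene KRT19, which averaged 1790 CPM over all libraries, while the other tested markers averaged 0.418 to 78.5 CPM. KRT19 rose by 1.96 ± 0.38 on the log2 scale in BRG1 (edgeR, adjusted p = 0.00213), and its values of −0.76 ± 0.41 in BRM and 0.91 ± 0.37 in double did not pass (adjusted p = 0.253 and 0.0975). The other cholangiocyte marker, KRT7, averaged only 3.06 CPM. Its values of 0.52 ± 0.92 in BRG1, −1.56 ± 1.07 in BRM and −2.99 ± 1.04 in double did not pass (adjusted p = 0.754, 0.39 and 0.0541). In double the 2 keratin genes thus had opposite signs. Of the 11 marker genes of other cell types that were tested, 1 was called higher in BRG1, 2 were called higher in BRM, and 2 higher and 1 lower in double libraries. The shares of all tested genes called higher were 12.5% in BRG1, 7.66% in BRM and 11.8% in double libraries. The lymphocyte markers CD3E and MS4A1 were at 0 counts throughout, and the leukocyte marker PTPRC stayed between 0.0491 and 0.819 CPM. The summed levels differed between the groups, as did levels of the genes below, and their part in the results was not tested. In a bulk sample, fewer cells of a type and less RNA per cell cannot be told apart.

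The promoters are shown for the 2 genes with the largest departures from additivity, BIRC3 and TNFAIP3, for the inhibitor gene NFKBIA, and for BIRC2, the neighbour and close paralog of BIRC3. Each is the RefSeq GRCh38.p14 window from 250 bases before to 50 bases after the gene start, 5′ to 3′ on the gene's strand, and capitals mark matches of the 10-base κB consensus, searched on both strands. The consensus was GGGRNWYYCC, where R is A or G, W is A or T, Y is C or T and N is any base. BIRC3 lies at chr11:102317234-102317533 on the plus strand, BIRC2 at chr11:102346964-102347263 on the plus strand, TNFAIP3 at chr6:137867009-137867308 on the plus strand and NFKBIA at chr14:35404700-35404999 on the minus strand.
BIRC3: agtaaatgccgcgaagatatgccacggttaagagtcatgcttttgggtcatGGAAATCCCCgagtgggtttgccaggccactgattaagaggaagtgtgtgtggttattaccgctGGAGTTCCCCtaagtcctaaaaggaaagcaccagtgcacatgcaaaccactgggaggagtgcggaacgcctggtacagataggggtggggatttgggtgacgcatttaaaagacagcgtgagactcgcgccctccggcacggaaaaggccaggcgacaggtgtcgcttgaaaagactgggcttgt
TNFAIP3: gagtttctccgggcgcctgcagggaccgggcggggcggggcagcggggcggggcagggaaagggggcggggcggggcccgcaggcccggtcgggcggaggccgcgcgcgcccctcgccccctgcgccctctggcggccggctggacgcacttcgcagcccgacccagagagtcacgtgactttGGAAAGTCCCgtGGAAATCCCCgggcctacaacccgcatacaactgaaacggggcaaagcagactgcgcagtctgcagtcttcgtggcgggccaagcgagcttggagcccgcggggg
NFKBIA: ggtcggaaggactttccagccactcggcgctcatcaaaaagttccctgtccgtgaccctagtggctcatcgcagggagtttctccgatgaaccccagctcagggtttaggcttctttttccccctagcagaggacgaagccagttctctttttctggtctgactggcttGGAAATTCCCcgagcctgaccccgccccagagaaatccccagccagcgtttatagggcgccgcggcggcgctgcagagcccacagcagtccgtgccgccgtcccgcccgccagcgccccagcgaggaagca
BIRC2: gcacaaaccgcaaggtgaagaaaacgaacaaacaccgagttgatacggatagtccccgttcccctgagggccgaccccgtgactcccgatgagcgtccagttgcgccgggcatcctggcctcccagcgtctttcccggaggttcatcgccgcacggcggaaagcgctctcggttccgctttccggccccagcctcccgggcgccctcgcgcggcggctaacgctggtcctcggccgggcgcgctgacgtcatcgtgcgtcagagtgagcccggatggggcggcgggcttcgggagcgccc
BIRC3 held 2 matches, at −199 to −190 and −135 to −126 from its start. TNFAIP3 held 2 matches only a few bases apart, at −67 to −58 and −55 to −46, and NFKBIA held 1, at −81 to −72. Positions count from the RefSeq start, which is 102317484 for BIRC3 and 137867259 for TNFAIP3. The gene coordinates given below come from another annotation and begin earlier for both, so the TNFAIP3 matches lie inside those coordinates. Neither BIRC2 window and no ICAM1 window held a full match. The ICAM1 window held TGGAAATTCC, which differs from the consensus only in its opening base, and such near matches were not counted for any gene. Over the 8 members in the promoter table, 6 had a match in at least 1 of their windows (7 of 13 windows), and 5.91% of all 35116 windows held one. A match is a description of these letters and not a measured binding site, and its absence says only that the letters are not in the window.

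BIRC3 encodes cIAP2, a ubiquitin ligase that protects cells from death signalled by tumour necrosis factor receptors and is itself a classical NF-κB target. The gene lies on chromosome 11 (102317450 to 102339403, plus strand, GRCh38). It was the member that stood furthest above NS in the double knockdown. BIRC3 had 4.81, 5.99, 3.13 and 2.75 CPM in BRG1 libraries 1 to 4, 1.29, 0.450 and 0.645 CPM in BRM libraries 1 to 3, and 18.0, 18.8, 22.8 and 11.3 CPM in double libraries 1 to 4, against 1.75, 2.24, 1.75 and 1.16 CPM in NS libraries 1 to 4. Every double library was above every BRG1 library, every BRG1 library was above every NS library, and the BRM libraries overlapped the NS libraries at the low end. Relative to NS the log2 level was higher by 1.28 ± 0.35 in BRG1 and by 3.37 ± 0.36 in double libraries and lower in BRM, at −1.15 ± 0.42 (estimate ± SE). Within libraries 1 and 2 and within libraries 3 and 4 the changes were 1.45 and 1.03 for BRG1, −1.28 and −1.20 for BRM and 3.22 and 3.56 for double. The summed counts were 366 in BRG1, 39 in BRM and 1455 in double libraries, against 108 in NS libraries, so the BRM level rests on few reads.

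BIRC2 encodes cIAP1, the paralog that keeps NIK low together with TRAF proteins. Its gene follows BIRC3 on the same strand of chromosome 11 (102347211 to 102378670), 7807 bases further on. BIRC2 had 196, 172, 69.8 and 70.6 CPM in BRG1 libraries, 64.0, 39.7 and 31.9 CPM in BRM libraries and 133, 112, 99.2 and 63.5 CPM in double libraries, against 52.3, 56.9, 34.4 and 37.7 CPM in NS libraries. The BRG1 and double libraries were all above the NS libraries and overlapped each other, and the BRM libraries spanned the NS range. The log2 change against NS was 1.49 ± 0.36 for BRG1, −0.01 ± 0.39 for BRM and 1.17 ± 0.36 for double. The BRG1 change was 1.76 within libraries 1 and 2 and 0.92 within libraries 3 and 4, the BRM change −0.08 and −0.26, and the double change 1.17 and 1.13. Double minus BRG1 was −0.32 ± 0.36 for BIRC2 and 2.09 ± 0.34 for BIRC3.

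Reads shared by such paralogs are divided by estimation in kallisto, the quantifier named by the submitters, so the split between BIRC3 and BIRC2 is uncertain. The sum of both genes averaged 131 ± 67.9 CPM in BRG1 libraries (SD, n = 4), 46.0 ± 17.2 CPM in BRM libraries (n = 3) and 120 ± 32.2 CPM in double libraries (n = 4), against 47.0 ± 11.3 CPM in NS libraries (n = 4). BIRC3 made up 2.39 to 4.29% of this sum in BRG1, 1.12 to 1.98% in BRM and 12.0 to 18.7% in double libraries, against 2.99 to 4.85% in NS libraries. The share in the double knockdown was above that in every other library.

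TNFAIP3, NFKBIA and TNIP1 encode feedback inhibitors. TNFAIP3 encodes A20, a ubiquitin-editing enzyme that ends receptor signalling (chromosome 6, 137867188 to 137883312, plus strand). TNFAIP3 had 13.4, 19.2, 17.6 and 17.9 CPM in BRG1 libraries, 12.0, 11.1 and 12.2 CPM in BRM libraries and 27.0, 24.6, 25.1 and 26.9 CPM in double libraries, against 21.6, 20.2, 34.7 and 43.4 CPM in NS libraries. Each single knockdown lay below all NS libraries, the BRM libraries lay below all others, and the double libraries lay inside the NS range. The log2 change against NS was −0.82 ± 0.22 for BRG1, −1.35 ± 0.24 for BRM and −0.21 ± 0.22 for double. The double change had opposite signs in the library sets, 0.30 within libraries 1 and 2 and −0.64 within libraries 3 and 4, with NS libraries 3 and 4 above NS libraries 1 and 2 and the double libraries alike. The BRG1 change was −0.37 and −1.18 within the sets and the BRM change −0.86 and −1.77. An antisense gene overlaps TNFAIP3, and antisense genes overlap ICAM1. The strand setting of the counting is not given in the sources used here, so reads of these partners cannot be told apart.

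NFKBIA encodes IκBα, the inhibitor that NF-κB induces to shut itself off (chromosome 14, 35401511 to 35404749, minus strand). NFKBIA had 95.9, 91.5, 114 and 116 CPM in BRG1 libraries, 161, 194 and 150 CPM in BRM libraries and 199, 214, 219 and 176 CPM in double libraries, against 143, 140, 116 and 92.0 CPM in NS libraries. All BRM and double libraries were above all NS libraries, and the BRG1 libraries overlapped them. The log2 change against NS was −0.23 ± 0.16 for BRG1, 0.46 ± 0.18 for BRM and 0.72 ± 0.17 for double. Within the sets the BRG1 change had opposite signs, −0.59 in libraries 1 and 2 and 0.11 in libraries 3 and 4, while the BRM change was 0.33 and 0.45 and the double change 0.55 and 0.88. The estimates of the feedback genes TNFAIP3 and NFKBIA therefore had opposite signs after BRM knockdown. That of NFKBIA was not called in the main fit and was called with a term for the library set.

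TNIP1 encodes ABIN-1, a ubiquitin-binding partner of A20 (chromosome 5, 151029945 to 151093577, minus strand). TNIP1 had 87.6, 85.4, 117 and 121 CPM in BRG1 libraries, 42.8, 62.2 and 88.6 CPM in BRM libraries and 44.0, 48.7, 76.5 and 84.7 CPM in double libraries, against 81.5, 71.0, 98.9 and 86.5 CPM in NS libraries. The double libraries were all below the BRG1 libraries and, within each set of library numbers, below the NS libraries. The log2 change was 0.28 ± 0.25 for BRG1, −0.39 ± 0.27 for BRM and −0.41 ± 0.25 for double against NS, and −0.69 ± 0.25 for double minus BRG1. Within the sets it was 0.18 and 0.32 for BRG1, −0.53 and −0.15 for BRM and −0.72 and −0.25 for double against NS, and −0.90 and −0.57 for double minus BRG1.

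Among the subunits, NFKB2 and RELB belong to the non-canonical branch. NFKB2 encodes p100, the precursor of p52 (chromosome 10, 102394110 to 102402529, plus strand). NFKB2 had 39.7, 38.5, 73.1 and 80.5 CPM in BRG1 libraries, 11.0, 17.3 and 39.2 CPM in BRM libraries and 45.8, 45.1, 107 and 104 CPM in double libraries, against 20.1, 21.6, 42.8 and 46.1 CPM in NS libraries. The pooled groups overlapped, but within each set of library numbers the order was the same, with double highest, then BRG1, then NS, and BRM lowest. The log2 change against NS was 0.83 ± 0.44 for BRG1, −0.53 ± 0.48 for BRM and 1.21 ± 0.44 for double. Within libraries 1 and 2 and libraries 3 and 4 it was 0.91 and 0.75 for BRG1, −0.54 and −0.26 for BRM and 1.12 and 1.20 for double.

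RELB is the partner of p52 (chromosome 19, 45001430 to 45038198, plus strand). RELB had 15.4, 14.3, 21.8 and 23.4 CPM in BRG1 libraries, 3.06, 4.70 and 10.7 CPM in BRM libraries and 19.5, 16.1, 40.2 and 39.0 CPM in double libraries, against 5.72, 4.08, 7.10 and 7.66 CPM in NS libraries. Every BRG1 and double library was above every NS library, and the BRM libraries lay on both sides of the NS range. The log2 change against NS was 1.60 ± 0.39 for BRG1, 0.01 ± 0.42 for BRM and 2.22 ± 0.40 for double. The BRM change was −0.33 within libraries 1 and 2 and 0.45 within libraries 3 and 4, and the double change was 1.84 and 2.37. Without BRM replicate 3 the pooled BRM change was −0.69 for RELB and −1.24 for NFKB2.

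NFKB1 encodes p105, the precursor of p50 in the canonical branch (chromosome 4, 102501329 to 102617302, plus strand). NFKB1 had 35.1, 33.9, 46.8 and 49.5 CPM in BRG1 libraries, 38.9, 42.0 and 41.0 CPM in BRM libraries and 48.8, 44.9, 47.3 and 49.9 CPM in double libraries, against 34.9, 33.0, 61.0 and 63.7 CPM in NS libraries. All 3 knockdown groups lay within the NS range. The pooled log2 changes were −0.22 ± 0.21 for BRG1, −0.24 ± 0.23 for BRM and −0.01 ± 0.21 for double. The sets differed in sign for BRM (0.26 within libraries 1 and 2, −0.69 within libraries 3 and 4), for double (0.47 and −0.41) and for BRG1 (0.02 and −0.41), so the pooled values average unlike values. In double against NS, NFKB1 was called higher within libraries 1 and 2 alone and lower within libraries 3 and 4 alone.

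ICAM1 encodes an adhesion molecule of the cell surface that binds leukocyte integrins and is induced by NF-κB (chromosome 19, 10270835 to 10286615, plus strand). ICAM1 had 58.3, 63.6, 124 and 139 CPM in BRG1 libraries, 33.1, 60.4 and 98.2 CPM in BRM libraries and 129, 125, 224 and 234 CPM in double libraries, against 62.3, 55.2, 170 and 212 CPM in NS libraries. Within each set the double libraries were above all others of that set. The log2 change against NS was −0.38 ± 0.46 for BRG1, −0.97 ± 0.51 for BRM and 0.51 ± 0.46 for double. Within libraries 1 and 2 and libraries 3 and 4 it was 0.05 and −0.58 for BRG1, −0.32 and −1.04 for BRM and 1.12 and 0.21 for double.

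**Figure D1:**
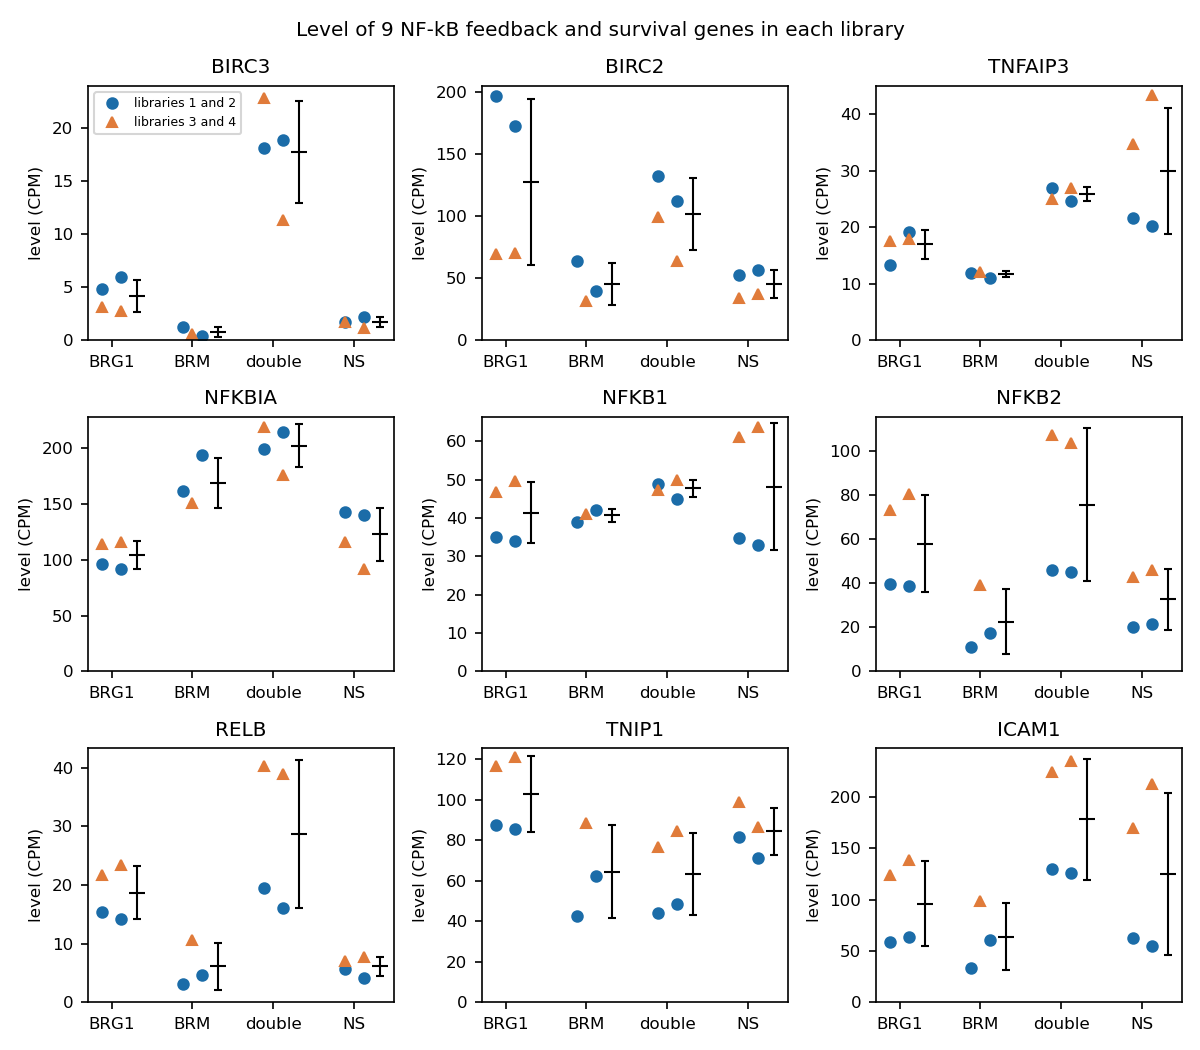
Level of each NF-κB gene in every library (y axis, CPM, linear from 0) by group (x axis, BRG1, BRM, double, NS). Circles are libraries 1 and 2, triangles are libraries 3 and 4, and the bars beside them are the group mean and SD. BIRC3 in the double knockdown stands at 11.3 to 22.8 CPM, above every other library, and NFKB2 and ICAM1 separate by library number within groups.

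All 9 genes passed the filter on low counts that left 14621 genes for testing with edgeR's quasi-likelihood test. A gene is called below at a Benjamini-Hochberg adjusted p under 0.05 over these genes. Because the choice of the 9 used these contrasts, the counts are read only against the share of all tested genes called. In BRG1 against NS, 3 members were called higher (BIRC3, BIRC2, RELB) and 1 lower (TNFAIP3), and 12.5% of all genes were called higher and 9.97% lower. With the replicate number as a block NFKB2 was called higher as well. In BRM against NS, 0 were called higher and 1 lower (TNFAIP3), against 7.66% and 6.26% of all genes. In double against NS, 4 were called higher (BIRC3, BIRC2, NFKBIA, RELB) and 0 lower, against 11.8% and 9.9% of all genes. In double against BRG1, 2 were called higher (BIRC3, NFKBIA) and 0 lower, against 4.1% and 6.72% of all genes. In double against BRM, 4 were called higher (BIRC3, TNFAIP3, NFKB2, RELB) and 0 lower, against 9.32% and 9.74% of all genes.

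The median log2 change of the 9 genes was 0.28 for BRG1, −0.39 for BRM and 0.72 for double against NS, beside 0.02, 0.03 and 0.02 over all tested genes. These comparisons share the NS libraries, and the choice of the 9 used these values, so the medians are a description. With the same block, 7 members were called in double against NS, the added ones being NFKB2 and ICAM1 (higher) and TNIP1 (lower). The BIRC3 call in BRG1 against NS was lost without NS replicate 4, BRG1 replicate 1 or BRG1 replicate 2, and within libraries 3 and 4 alone. The TNFAIP3 call in BRG1 against NS was lost within libraries 1 and 2 alone. The BIRC2 call in double against NS was lost without any of NS replicates 1, 3 and 4 or double replicates 1, 2 and 3, and the NFKB2 call in double against BRM without BRM replicate 1, BRM replicate 2 or double replicate 3.

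The departure from additivity is the double minus the BRG1 minus the BRM level plus the NS level on the log2 scale, which is 0 where the changes of the single knockdowns add up to that of the double. The knockdowns were not equal in depth, as SMARCA4 was higher by 0.73 ± 0.16 in double than in BRG1 libraries. SMARCA2 changed by −0.61 ± 0.23 in BRG1 against NS. The part of these differences in the departures was not tested. Over all genes 0.103% were called with a positive and 0.397% with a negative departure, and among the members 2 were called, both positive (BIRC3 and TNFAIP3), and 0 negative. For BIRC3 the double change was 3.37 and the single changes summed to 0.13, a departure of 3.24 ± 0.54. The geometric mean in double libraries was 17.2 CPM, against 1.70 CPM had the single changes added, a ratio of 10.1. For TNFAIP3 the double change was −0.21 and the sum of the single changes −2.17, a departure of 1.96 ± 0.32. Here the double libraries held 25.9 CPM, against 6.95 CPM from adding the single changes, a ratio of 3.72. Thus BIRC3 departed through a high double level (double minus BRG1 2.09) together with a low BRM level (BRM minus NS −1.15). The BRM change was not called in this fit, and the BRM level rests on 39 counts. TNFAIP3 departed through low levels in the single knockdowns. The TNFAIP3 call was lost without BRM replicate 2.

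ICAM1 had a departure of 1.86 ± 0.69, with a double change of 0.51 beside a sum of −1.34 for the single knockdowns. It was not called in the fit used here and was called with a term for the library set. NFKB2 had a departure of 0.91 ± 0.65, RELB 0.61 ± 0.56, NFKBIA 0.50 ± 0.24 and NFKB1 0.45 ± 0.31. BIRC2 and TNIP1 were the members with negative estimates, −0.32 ± 0.52 and −0.31 ± 0.37. For RELB the double change was 2.22 beside a sum of 1.62. Without BRM replicate 3 the departure was 1.32 for RELB and 1.63 for NFKB2, and without BRM replicate 1 it was 0.30 and 0.59. For NFKB1 it was 0.29 without NS replicate 4. The median departure of the 9 genes was 0.61, beside −0.05 over all tested genes. The choice of the 9 used the departures, so this difference is a description.

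**Figure D2:**
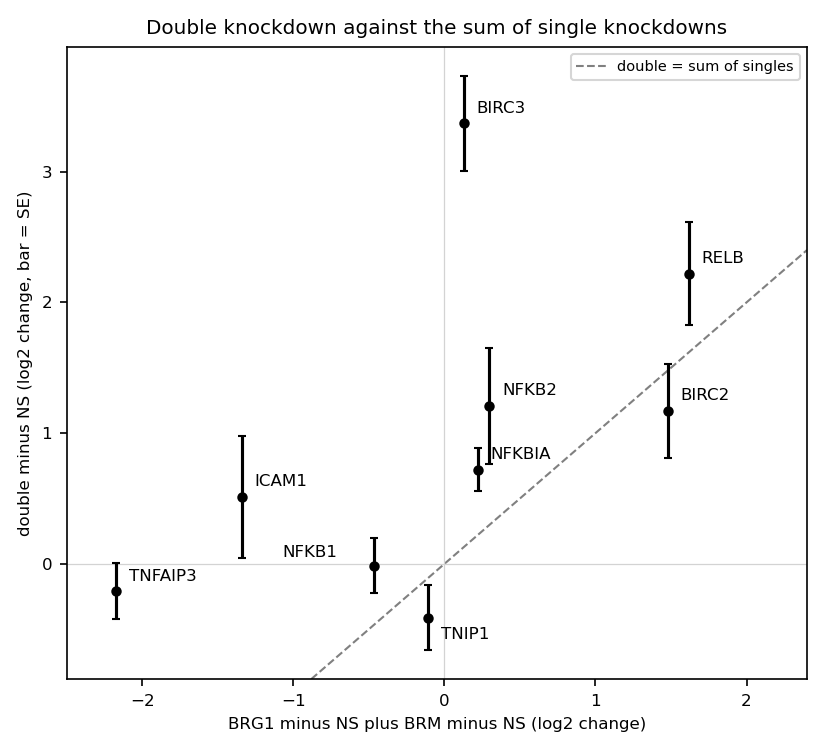
Double minus NS log2 change (y axis) against the sum of the BRG1 minus NS and BRM minus NS log2 changes (x axis) for the 9 NF-κB genes, with bars of 1 SE of the double change. Points on the diagonal would be additive. BIRC3, TNFAIP3 and ICAM1 lie furthest above it, with departures of 3.24, 1.96 and 1.86.

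The departure of BIRC3 was 3.05 within libraries 1 and 2 and 3.73 within libraries 3 and 4. That of TNFAIP3 was 1.53 and 2.31, and that of ICAM1 was 1.38 and 1.84. The estimate for NFKBIA was 0.81 and 0.32, and that for NFKB2 0.76 and 0.72. BIRC2 had opposite signs in the sets, −0.52 and 0.47. The value from libraries 3 and 4 rests on 1 BRM library.

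**Figure D3:**
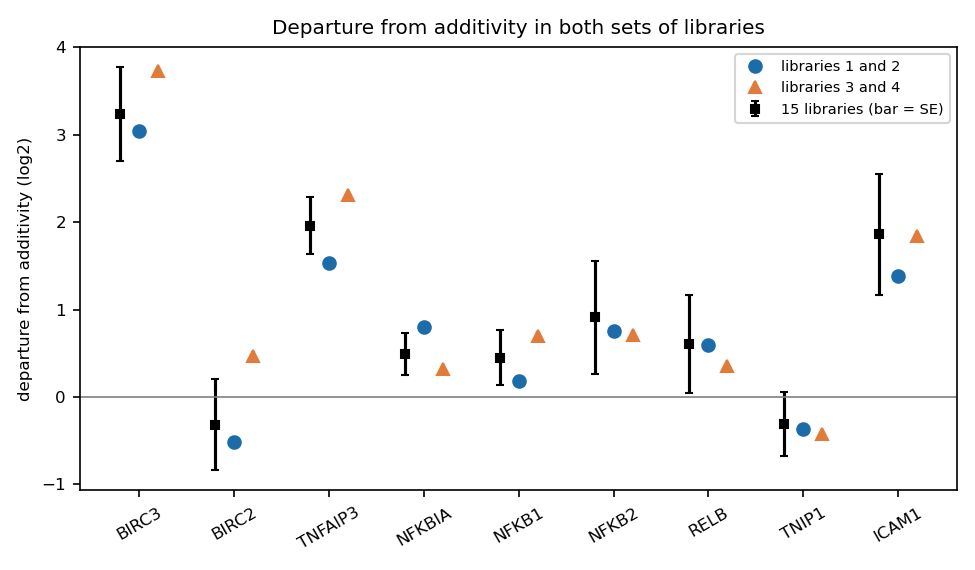
Departure from additivity on the log2 scale (y axis) of each NF-κB gene (x axis) over all 15 libraries (squares, with bars of 1 SE), within libraries 1 and 2 (circles) and within libraries 3 and 4 (triangles). BIRC3 stands at 3.05 and 3.73 and BIRC2 is on opposite sides of 0, at −0.52 and 0.47.

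The difference between libraries 3 and 4 and libraries 1 and 2, with group in the model, was not used in choosing the genes and is given with its test. Of the 9 members, 5 were higher and 1 lower in libraries 3 and 4, and 27.3% of all genes were called higher and 28.3% lower. ICAM1 was higher by 1.19 ± 0.14 on the log2 scale (edgeR, adjusted p = 5e-06) and NFKB2 by 1.16 ± 0.10 (adjusted p = 3.66e-07). RELB was higher by 0.91 ± 0.14 (adjusted p = 5.6e-05), TNIP1 by 0.56 ± 0.10 (adjusted p = 0.000257) and NFKB1 by 0.39 ± 0.11 (adjusted p = 0.00803). BIRC2 was lower, at −0.83 ± 0.14 (adjusted p = 0.000196). The values of BIRC3 (−0.45 ± 0.21, adjusted p = 0.0823), TNFAIP3 (0.30 ± 0.13, adjusted p = 0.0693) and NFKBIA (−0.10 ± 0.11, adjusted p = 0.435) did not pass. TNFAIP3 was called higher without BRG1 replicate 2 or BRM replicate 3, with DESeq2, with DESeq2 size factors or with no filter on low counts, and BIRC3 was called lower without BRM replicate 2 or double replicate 3.

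The genes most like BIRC3 were sought among 11895 other genes (mean level of 2 CPM or more) by the root mean square difference of the 3 log2 changes against NS. They were JUNB (0.59), SOCS3 (0.61), GRIN2D (0.67), SMPDL3B (0.67) and MAPK11 (0.69), and the nearest member was RELB at 0.96. JUNB, an AP-1 subunit, had changes of 1.54 for BRG1, −0.49 for BRM and 2.63 for double, and SOCS3, an inhibitor of cytokine receptor signalling, had 1.33, −1.28 and 2.32. For TNFAIP3 the nearest were AC068631.2 (0.13), HS3ST3B1 (0.17), NR0B2 (0.17), EIF3CL (0.17) and KIF24 (0.18), and the nearest member was ICAM1 at 0.54. NR0B2, which encodes the nuclear receptor SHP, had changes of −0.76, −1.26 and −0.48. The distances rest on 15 libraries and 3 values that share the NS libraries.

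Other genes of the pathway were taken from 5 lists of 110 genes, of which 89 were tested. The lists, like the members, were chosen with earlier results of these data known. Their counts and adjusted p-values here and below are therefore a description and no independent test. Over all lists, 21 rose and 5 fell in BRG1 against NS, 12 rose and 9 fell in BRM, and 25 rose and 4 fell in double, with medians of 0.28, 0.14 and 0.35 beside 0.02, 0.03 and 0.02 over all genes. Of all tested genes, 12.5% were called higher and 9.97% lower in BRG1, 7.66% and 6.26% in BRM, and 11.8% and 9.9% in double, and the counts of the lists below are to be read against these shares. With the replicate block the number called was 41 for BRG1 and 46 for double. The number for BRM was 7 without BRM replicate 2, 12 without NS replicate 2 and 13 without NS replicate 3 or BRM replicate 3. Between the knockdowns, 5 rose and 6 fell in double against BRG1, and 19 rose and 5 fell in double against BRM. In the main edgeR fit, with no block or set term, no list gene was called for the departure from additivity (0 of 89, with 14 at an unadjusted p under 0.05). In edgeR with the replicate block 6 were called, and with a term for the library set 8 were called. DESeq2 called 5 (CCL20, CSF1, HTRA2, IL1R1 and MLKL), limma voom called 0, and 1 or 2 were called without NS replicate 2, BRM replicate 1, double replicate 3 or double replicate 4.

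Of the 18 receptors and adaptors tested, 7 rose and 1 fell in BRG1, 3 fell in BRM, and 4 rose and 1 fell in double libraries. TLR4, the receptor for lipopolysaccharide, averaged 18.5 ± 7.92 CPM in BRG1 libraries (SD, n = 4) and 2.35 ± 1.22 CPM in NS libraries (n = 4), a log2 change of 2.97 ± 0.46 (adjusted p = 0.000421). CD40, a receptor that feeds the non-canonical branch, rose by 1.60 ± 0.19 in BRG1 (adjusted p = 4.74e-05) and changed by −0.86 ± 0.21 in BRM (adjusted p = 0.0157), a BRM call lost without BRM replicate 2. IL1R1, an interleukin-1 receptor, averaged 26.9 ± 4.64 CPM in BRM libraries (n = 3) and 68.6 ± 12.6 CPM in NS libraries (n = 4), a change of −1.35 ± 0.24 (adjusted p = 0.00202), with −1.0 and −1.91 within the sets. Its co-receptor IL1RAP changed by −1.67 ± 0.30 in BRG1 (adjusted p = 0.00127) and −1.47 ± 0.30 in double libraries (adjusted p = 0.00297), the double change being −0.83 and −2.02 within the sets. TRAF1, an adaptor that binds cIAP proteins, rose by 2.54 ± 0.47 in double (adjusted p = 0.00142), with 1.60 within libraries 1 and 2 and 3.68 within libraries 3 and 4. Its level was low, 4.06 ± 1.96 CPM in double and 0.706 ± 0.368 CPM in NS libraries. RIPK1, a kinase at the tumour necrosis factor receptor, rose by 0.68 ± 0.14 in double (adjusted p = 0.00305), and TRAF3, which holds NIK for degradation, changed by −0.68 ± 0.17 in BRM (adjusted p = 0.0144).

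Of the 19 kinases and ubiquitin enzymes tested, 0 were called in BRG1 (1 at an unadjusted p under 0.05), 1 rose and 1 fell in BRM, and 2 rose and 1 fell in double libraries. These counts are near or below the shares of all genes called. MAP3K14 averaged 7.02 ± 2.20 CPM in BRG1 libraries (SD, n = 4), 6.74 ± 0.465 CPM in BRM libraries (n = 3) and 24.3 ± 9.04 CPM in double libraries (n = 4), against 4.93 ± 1.35 CPM in NS libraries (n = 4). The double libraries, at 15.7 to 36.3 CPM, were all above the other libraries. MAP3K14 rose by 2.30 ± 0.30 in double against NS (adjusted p = 0.00012), with 1.53 and 2.99 within the sets, and by 1.79 ± 0.30 against BRG1 (adjusted p = 0.00145). Its changes of 0.51 ± 0.30 in BRG1 and 0.45 ± 0.32 in BRM did not pass (adjusted p = 0.25 and 0.407), nor did its departure of 1.35 ± 0.43 (adjusted p = 0.192). IKBKB, a catalytic IκB kinase, changed by −0.97 ± 0.28 in BRM (adjusted p = 0.0307), a call lost without NS replicate 1 or 2 or BRM replicate 2 or 3. IKBKE changed by −1.67 ± 0.51 in double (adjusted p = 0.0301), a call lost without NS replicate 3 or 4 or double replicate 1 or 2. CHUK, the kinase of the non-canonical branch, rose by 0.58 ± 0.17 in double (adjusted p = 0.0261), and USP18 by 0.81 ± 0.25 in BRM (adjusted p = 0.0468). The CHUK call was lost in 8 of the 15 fits that leave out 1 library and the USP18 call in 11.

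Of the 7 other subunits and IκB proteins, 0 were called in BRG1 (2 at an unadjusted p under 0.05), 1 rose in BRM and 3 rose in double libraries. BCL3, a nuclear IκB protein, averaged 50.3 ± 21.8 CPM in BRM libraries (n = 3) and 49.2 ± 11.1 CPM in double libraries (n = 4), against 24.0 ± 2.97 CPM in NS libraries (n = 4). Its change was 1.07 ± 0.32 in BRM (adjusted p = 0.0357) and 1.04 ± 0.30 in double (adjusted p = 0.0215), and without BRM replicate 3 the BRM change was 0.62 and did not pass. NFKBIB rose by 0.58 ± 0.15 (adjusted p = 0.0114) and NFKBIE by 0.83 ± 0.28 (adjusted p = 0.046) in double, both inhibitors of the IκB family. The BCL3 calls were lost in 9 fits that leave out 1 library for BRM and 3 for double, the NFKBIE call in 12, and the NFKBIB call in 1, without double replicate 2.

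Of the 21 other NF-κB target genes tested, 8 rose and 2 fell in BRG1, 2 rose and 4 fell in BRM, and 7 rose and 2 fell in double libraries. The chemokine gene CCL5 averaged 19.6 ± 4.51 CPM in BRG1 libraries (SD, n = 4), 0.832 ± 0.296 CPM in BRM libraries (n = 3) and 22.6 ± 5.55 CPM in double libraries (n = 4), against 0.755 ± 0.486 CPM in NS libraries (n = 4). It rose by 4.71 ± 0.40 in BRG1 (adjusted p = 5e-06) and 4.92 ± 0.41 in double libraries (adjusted p = 3.7e-06). BCL2A1, a survival protein of the BCL2 family, rose by 4.51 ± 0.54 in BRG1 (adjusted p = 4.7e-05) and 3.46 ± 0.53 in double (adjusted p = 0.000346). It averaged 5.46 ± 1.56 CPM in BRG1, 0.132 ± 0.072 CPM in BRM and 2.62 ± 0.88 CPM in double libraries, against 0.236 ± 0.203 CPM in NS libraries. These changes thus start near the floor, and its mean of 2.24 CPM over all libraries comes from the groups where it is high. CSF1, a macrophage growth factor, rose by 2.23 ± 0.28 in BRG1 (adjusted p = 8.05e-05), and CD83 by 1.46 ± 0.27 in double (adjusted p = 0.00122). In BRM libraries the immediate-early survival gene IER3 changed by −1.84 ± 0.36 (adjusted p = 0.00384), the chemokine gene CCL20 by −3.82 ± 0.83 (adjusted p = 0.0074) and IL32 by 1.37 ± 0.35 (adjusted p = 0.0186). The CCL20 call was lost without BRM replicate 2, and the IL32 call without NS replicate 2 or BRM replicate 2 or 3. The target genes CXCL1, CXCL10 and CCL2 had 0 counts in all libraries, and TNF, IL6, VCAM1 and SELE stayed below the filter, with at most 0.237, 0.0517, 0.0485 and 0.0465 CPM in any library.

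Of the 24 death and survival genes tested, 6 rose and 2 fell in BRG1, 8 rose and 1 fell in BRM, and 9 rose and 0 fell in double libraries. The numbers that fell are near or below the shares of all genes called. MCL1, a survival protein of the BCL2 family, averaged 491 ± 45.9 CPM in BRG1 libraries (SD, n = 4), 221 ± 47.0 CPM in BRM libraries (n = 3) and 619 ± 57.4 CPM in double libraries (n = 4), against 205 ± 61.6 CPM in NS libraries (n = 4). It rose by 1.26 ± 0.20 in BRG1 (adjusted p = 0.000502) and 1.60 ± 0.20 in double (adjusted p = 8.63e-05), with 1.69 and 0.84 within the sets for BRG1 and 2.01 and 1.19 for double. TNFRSF12A, the receptor for TWEAK, rose by 1.40 ± 0.25 in BRG1 (adjusted p = 0.00105) and 1.33 ± 0.25 in double (adjusted p = 0.00142). The double change of TNFRSF12A was 0.83 within libraries 1 and 2, where it was not called, and 1.74 within libraries 3 and 4. BID, which promotes death, rose by 0.75 ± 0.16 in double (adjusted p = 0.00348). BIRC5 (survivin), which also acts in cell division, changed by −1.50 ± 0.33 in BRG1 (adjusted p = 0.00454), with −2.33 and −1.09 within the sets. In BRM libraries MLKL, the effector of necroptosis, changed by −1.07 ± 0.17 (adjusted p = 0.00105). HTRA2 and DIABLO, mitochondrial proteins that oppose inhibitors of apoptosis, rose in BRM by 0.97 ± 0.17 (adjusted p = 0.0015) and 0.56 ± 0.13 (adjusted p = 0.0106), and the DIABLO call was lost without BRM replicate 2 or 3. Genes that promote and genes that block death were thus both among those that rose.

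**Figure D4:**
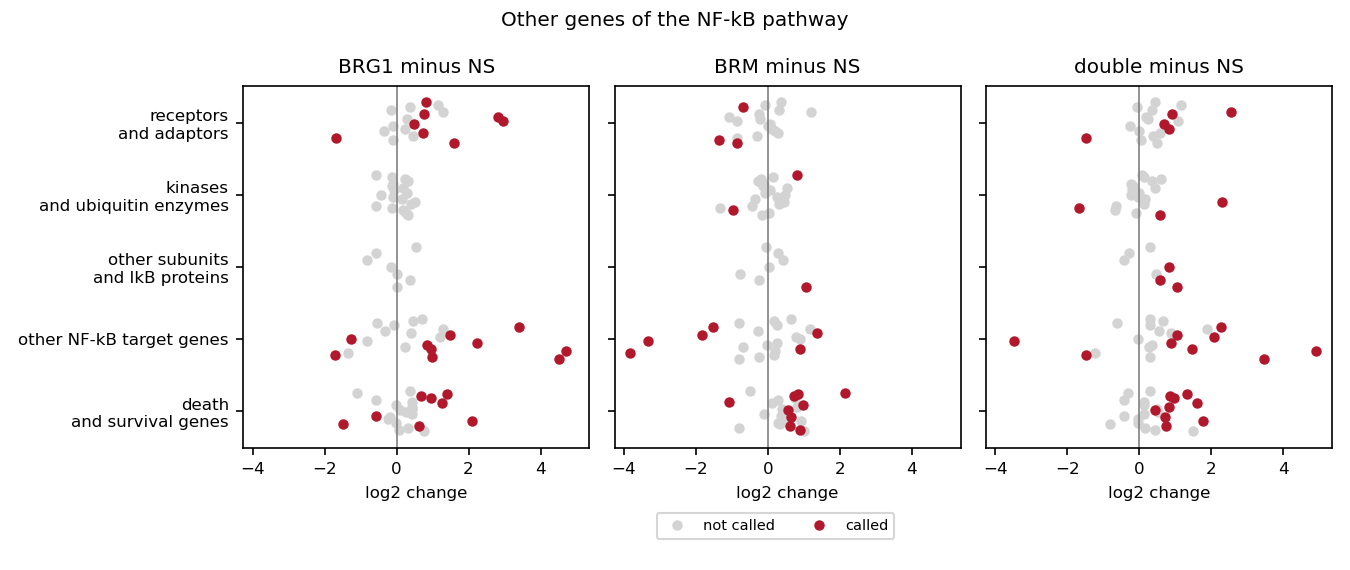
Log2 change against NS (x axis) of the tested genes of the 5 pathway lists (y axis, with vertical scatter only for display) in BRG1, BRM and double libraries. Points are genes, filled in red where called at an adjusted p under 0.05. Of the 89 genes, 26 were called in BRG1, 21 in BRM and 29 in double.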

How the data were processed

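RNA of 15 HepG2 libraries was measured after knockdown of BRG1, BRM or both. The deposited values are whole-number estimated counts per gene symbol from the authors, with no scaling between libraries. The submitters' processing notes name kallisto, DESeq2 and GRCh38 without versions or a strand setting. The authors' deposited table for each knockdown gives a log2 fold change without naming the reference, read here as knockdown over NS from the signs of SMARCA4 and SMARCA2. Its sign was the same for 26 of the 27 values of the 9 genes, with a largest difference from the estimates here of 0.0402 (BIRC2, BRG1 minus NS).

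Counts were analysed as deposited with edgeR 4.0.16 in R 4.3.3 (TMM, filterByExpr on the group, robust quasi-likelihood F test, two-sided), with group means of all 15 libraries in 1 fit and Benjamini-Hochberg adjustment over 14621 genes. limma 3.58.1 (voom) and DESeq2 1.42.0 were alternatives. The fits were tested on simulated data. Coordinates are those of GENCODE release 29. The members and the gene lists were chosen with earlier results of these data known. From each list, up to 3 non-members with the smallest adjusted p and a mean of at least 2 CPM were named for each comparison with NS and for the departure, if called, and other genes are named where a count or a difference needed them. For the genes most like BIRC3 and TNFAIP3, 5 were named for each.

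Libraries of the same number were taken as pairs where, in every pair, the residuals after removing group means correlated above 0.1. This applied to BRG1 with NS (0.427 to 0.565), to double with NS (0.179 to 0.454) and to BRM with BRG1 (0.104 to 0.532). It did not apply to BRM with NS (0.0733 to 0.527), double with BRG1 (0.0578 to 0.659) or double with BRM (0.0133 to 0.589). The rule therefore did not give the same pairs across all groups. The pairing comes from these data and not from the labels. Libraries of the same number also lie in the same set of library numbers, and removing group means leaves the set difference in the residuals. Libraries of different numbers within a set were not compared between groups. These correlations therefore cannot tell pairing by number from a shared set, and the main fit used no block. The set difference thus stays in the residual spread of the main fit, and calls with a block or set term are given beside it. No 2 libraries agreed within sampling noise, and each was counted as 1 replicate.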

Additional observations from a re-analysis of the deposited data

Results flagged for a closer look

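For 2 of the 9 genes the departure from additivity, the interaction in edgeR, was called. BIRC3 had a departure from additivity of 3.24 on the log2 scale and TNFAIP3 of 1.96. Both were chosen with this known, so the values are a description and the calls are no independent test. No library stood out within its group in the 27 groups of 4 libraries that were tested for an outlying value. The BRM group has 3 libraries and was not tested, and leaving out BRM replicate 2 or 3 changed results given above. Libraries also differed by set within a group, which limits what such a test can show.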

How the results depend on the processing

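Of 1287 recomputed log2 changes of the 9 genes, 1265 moved by less than the spread between replicates and 22 by more, and no change called over all 15 libraries reversed. NFKB1 in double against NS, not called over all libraries, was called higher within libraries 1 and 2 (0.47) and lower within libraries 3 and 4 (−0.41). Of the 22, 17 came from taking 1 set of library numbers alone and 5 from leaving out BRM replicate 3. For the named pathway genes, 787 recomputed changes kept their call and 77 fell short of the threshold with the same direction. Members called in BRM against NS (1) numbered 2 with DESeq2, 3 with the replicate block, 5 with a term for the library set (set term) and 3 within libraries 3 and 4, and 1 to 2 when 1 library was left out. In double against NS (4) they numbered 7 with the replicate block, 7 with the set term, 8 within libraries 1 and 2 and 7 within libraries 3 and 4. In double against BRG1 (2) they numbered 5, 6, 6 and 5 under the same settings. For the departure (2) they numbered 4 with the set term and 4 within libraries 1 and 2, and 1 to 2 when 1 library was left out. Pathway genes called in BRG1 against NS (26) numbered 41 with the replicate block, 43 with the set term and 48 within libraries 1 and 2. In BRM (21) they numbered 12 with no filter on low counts, 33 with the set term, 38 within libraries 1 and 2 and 10 with only the groups compared in the fit, and 7 to 19 when 1 library was left out. In double (29) they numbered 46 with the replicate block, 48 with the set term and 44 within libraries 3 and 4. For the departure (0) they numbered 1 with DESeq2 size factors, 1 with no filter, 5 with DESeq2, 6 with the replicate block, 8 with the set term, 19 within libraries 1 and 2 and 3 within libraries 3 and 4, and 0 to 2 when 1 library was left out. The cause of these differences was not tested. Where libraries were not taken as pairs by number, the block raised the members called to 3 in BRM against NS, 5 in double against BRG1 and 6 in double against BRM. Beside these and double against NS, the block changed no count of members by more than 1.5 times. BIRC3 in BRM libraries rests on 39 counts, which limits its change and its departure.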
